A study of Mus musculus with 10 samples.

Results

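Sprr1a, Krt8, Krt18 and Krt20 are 4 of the 55291 genes in a table of liver RNA-seq counts, and all 4 are in it. They were chosen because Sprr1a went from no counts to a well expressed gene when mice received carbon tetrachloride (CCl4), a solvent made toxic by cytochrome P450 in hepatocytes. The difference between CCl4 and vehicle was therefore used to choose them, and for these 4 genes it is given as a description without a test. The differences between genotypes were not used in the choice and were tested. Of the 4 genes, 3 had enough counts for a test, and Krt20 did not.

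Keratins build the intermediate filaments of epithelial cells, and each filament pairs a type II keratin with a type I keratin. Hepatocytes normally hold a single such pair, Krt8 (type II) and Krt18 (type I), whereas bile duct cells add Krt7 and Krt19. Both hepatocyte keratins are known to become more abundant in stressed or injured liver, and with chaperones and ubiquitin-binding proteins they form the inclusions called Mallory-Denk bodies. Sprr1a encodes a small proline-rich protein that transglutaminases link into the cornified envelope of squamous cells. Outside the epidermis it is known as a gene switched on by injury, for example in nerve and heart.

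The livers came from 10 female mice aged 16 to 20 weeks that all carried Cas9 behind a stop cassette. Each mouse received an AAV8 virus that carries a guide RNA and a Cre gene under the Tbg promoter, which is active in hepatocytes, so that only cells reached by the virus and using this promoter were meant to be edited. NTC mice received a non-targeting guide and sgBap1 mice a guide against Bap1, a deubiquitinase of chromatin. On day 10 the mice were injected intraperitoneally with CCl4 in olive oil, at 1 part in 9 parts and 10 µL per g of body weight, or with the vehicle, and livers were taken 48 h later. The groups were NTC-Veh (2 mice), sgBap1-Veh (2 mice), NTC-CCl4 (3 mice) and sgBap1-CCl4 (3 mice).

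The libraries held 3.30e+07 to 5.22e+07 estimated counts, and the floor used below, 3 counts, corresponds to 0.0511 to 0.112 CPM (counts scaled to the library size) in a single liver. Bap1 was lower in the sgBap1 livers, at 17.5 and 19.5 CPM with vehicle against 34.8 CPM in both NTC livers, and at 17.0 to 21.8 CPM with CCl4 against 29.5 to 31.5 CPM. The 10 hepatocyte markers examined summed to at least 76338 CPM in every library. One library, replicate 2 of sgBap1-CCl4, held Adipoq at 36.4 CPM and Plin1 at 34.5 CPM, which are fat cell genes and stood at 3 counts or fewer elsewhere. Without it 150 genes were called between genotypes with vehicle, 24 with CCl4 and 7 for the interaction, against 69, 56 and 0 with all livers, and its part in the results was not tested. In whole tissue, fewer cells of a type and less RNA per cell cannot be told apart.

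With CCl4, Sprr1a went from almost no reads to a clearly expressed gene in both genotypes (the plot of the 4 genes by liver). The gene (ENSMUSG00000050359.7) lies on the minus strand of chromosome 3, from 92483952 to 92485895 in GRCm38, within the cluster of epidermal differentiation genes. In NTC-Veh it had 0 counts in both livers, and in sgBap1-Veh it had 2 counts (0.0538 CPM) in replicate 1 and 8 counts (0.299 CPM) in replicate 2. In NTC-CCl4 it had 700, 2271 and 1081 counts, or 14.9, 42.7 and 28.1 CPM. In sgBap1-CCl4 it had 3420, 3838 and 2121 counts, or 58.2, 65.7 and 45.1 CPM. Every CCl4 liver therefore stood far above every vehicle liver, and the lowest sgBap1-CCl4 liver stood just above the highest NTC-CCl4 liver.

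**Figure D1:**
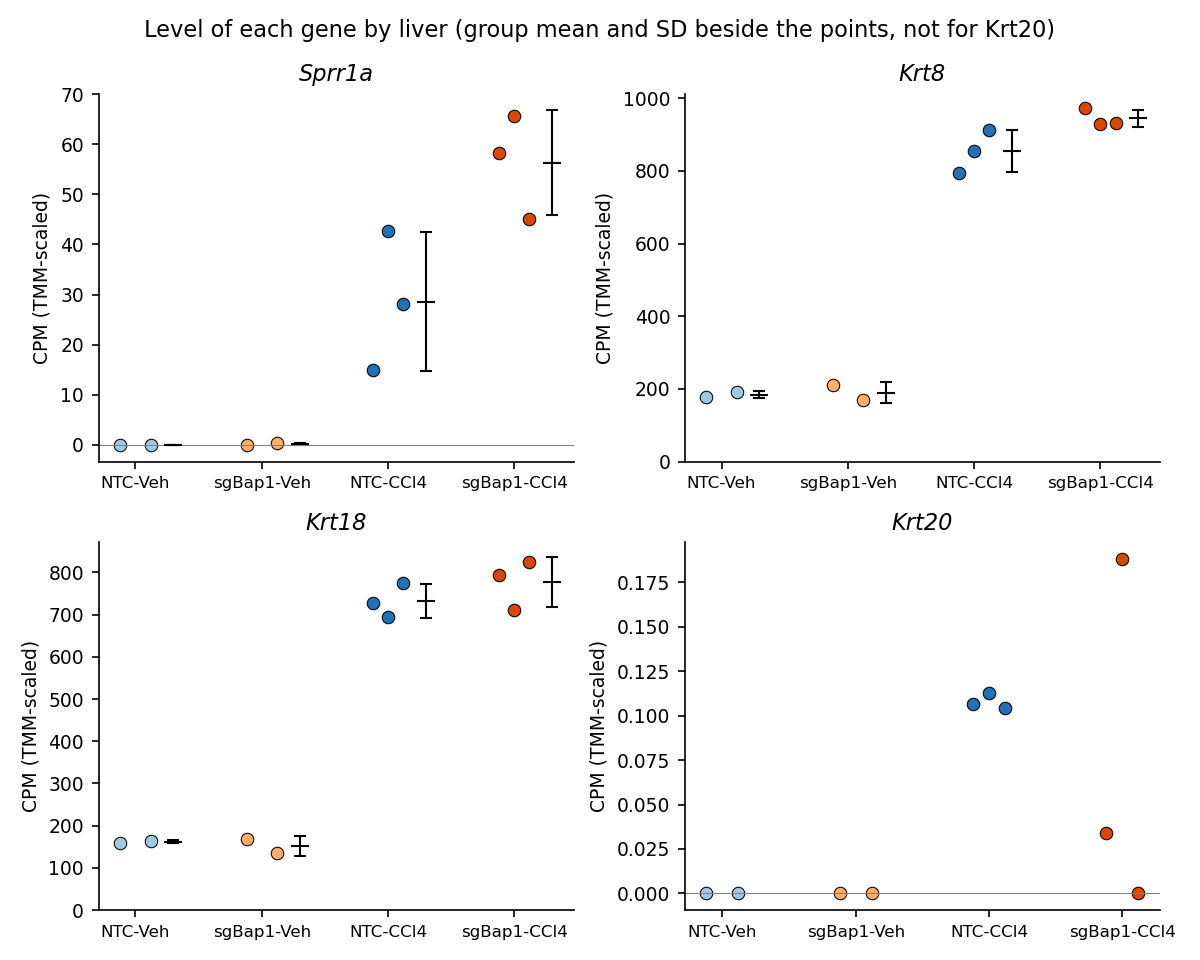
TMM-scaled CPM of Sprr1a, Krt8, Krt18 and Krt20 in each of the 10 livers (points, linear axes), with the group mean and SD beside the points except for Krt20. All 6 CCl4 livers lie above all 4 vehicle livers for Sprr1a, Krt8 and Krt18, whereas Krt20 reaches at most 0.188 CPM.

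The mean of Sprr1a in NTC-CCl4 was 28.6 ± 13.9 CPM (SD, n = 3), at least 347-fold higher than the NTC-Veh floor of 0.0824 CPM, which is 3 counts per library averaged over the 2 livers. The lowest of the 3 livers was at least 181-fold above that floor. In sgBap1 the mean was 56.3 ± 10.4 CPM (n = 3) with CCl4 against 0.177 ± 0.174 CPM (n = 2) with vehicle. The ratio of the pooled counts, 9379 against 10, was 365 (95% exact interval 198 to 761, for counting error only). Among the 17015 tested genes, Sprr1a had the largest fitted increase with CCl4 in NTC and the 20th largest in sgBap1, a rank that follows from the choice of the gene. By mean CPM it ranked 4654 of 55291 genes in NTC-CCl4 and 2452 in sgBap1-CCl4.

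Sprr1a was higher in sgBap1-CCl4 than in NTC-CCl4 by 0.98 on the log2 scale (SE 0.38, 95% interval 0.09 to 1.87), a fold of 1.97, but the difference did not pass the threshold over all genes (edgeR's quasi-likelihood test, unadjusted p = 0.0355, Benjamini-Hochberg adjusted p = 0.318). Between these 2 groups the livers of 2 of the 3 tested genes, Sprr1a and Krt8, were higher in sgBap1 without overlap, as were those of 10.1% of all tested genes, and 0.329% of all tested genes passed the threshold. An unadjusted p under 0.05, as Sprr1a had, was found for 14% of all tested genes. The 3 NTC-CCl4 livers spanned 14.9 to 42.7 CPM, about as wide as the gap between the 2 group means. Without replicate 2 of sgBap1-CCl4, the library with fat cell genes, the adjusted p was 0.592. With vehicle, the 10 counts in sgBap1 against 0 in NTC gave an adjusted p of 0.591, in a comparison in which 0.406% of tested genes passed. The 2 counts in replicate 1 lie under the floor and the 8 counts in replicate 2 above it. The test of whether CCl4 acted differently on Sprr1a in the 2 genotypes rested on these same few vehicle counts (adjusted p = 0.742).

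The window before the start of Sprr1a is shown because regulators of this gene are among the lists below. It runs over chr3:92485896-92486131 on the minus strand (RefSeq promoter table, GRCm38.p6), and the windows of Krt8 (chr15:102004483-102004592, minus strand) and Krt18 (chr15:102027966-102028179, plus strand) stand beside it. Each keeps only bases before both the RefSeq and the GENCODE start, so the lengths are 236, 110 and 214 bases. Capitals mark matches to the AP-1 motif TGANTCA, the motif of Jun and Fos proteins, and to the TATA motif TATAAA.
Sprr1a promoter: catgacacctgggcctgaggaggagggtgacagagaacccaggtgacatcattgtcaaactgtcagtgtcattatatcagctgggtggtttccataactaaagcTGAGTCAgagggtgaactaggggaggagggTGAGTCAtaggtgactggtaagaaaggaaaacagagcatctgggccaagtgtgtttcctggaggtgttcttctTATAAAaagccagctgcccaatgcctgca
Krt8 promoter: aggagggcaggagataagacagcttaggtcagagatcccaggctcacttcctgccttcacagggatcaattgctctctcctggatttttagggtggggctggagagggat
Krt18 promoter: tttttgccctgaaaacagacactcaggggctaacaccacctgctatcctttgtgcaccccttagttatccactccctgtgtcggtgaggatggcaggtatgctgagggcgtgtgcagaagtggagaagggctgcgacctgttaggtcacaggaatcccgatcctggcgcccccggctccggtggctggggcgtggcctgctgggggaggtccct
The Sprr1a window holds 2 matches to TGANTCA, which begin 146 and 116 bases before the RefSeq start, and 1 match to TATAAA, which begins 43 bases before it. Over both strands, TGANTCA occurs in 6.75% of the 32851 mouse promoters of the table in windows of 250 bases, and 0.338% hold 2 or more matches. TATAAA occurs in 12.4%. The cut Krt8 and Krt18 windows hold neither motif, and no window of the 3 holds TTCNNNGAA, the STAT motif, which occurs in 7.02% of promoters. The shares come from windows of 250 bases, so a shorter window had less room for a match. For Krt8 (RefSeq start 102004342, GENCODE start 102004482) and Krt18 (102028216 and 102028180) the bases next to the RefSeq start were cut away. A match there could not be found, so no difference from Sprr1a is drawn. No matches overlap. These are matches of letters only.

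The coding sequence of Sprr1a has 432 bases and is largely a repeat. Counted in frame from the start codon in units of 24 bases, 11 of the 18 units share the ending in capitals, which varies at 1 base, and they cover 61.1% of it. Units are shown because short reads have to be placed on such repeats.
Sprr1a unit at chr3:92484525-92484548, minus strand: aaccccaaggggccaGAGCCCTGC
Sprr1a unit at chr3:92484453-92484476, minus strand: aaccccaaggtgccaGAGCCCTGC
Sprr1a unit at chr3:92484357-92484380, minus strand: caacctaaggcaccaGAGCCTTGC
The 3 units shown differ at a few bases before that ending. None of the 50-base stretches of Sprr1a (0%) occur in another annotated gene, whereas 96.5% of those of Sprr2a2 do.

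Krt8 and Krt18, the hepatocyte pair, were already well expressed with vehicle and were between 4.51-fold and 5.09-fold higher with CCl4. Krt8 (ENSMUSG00000049382.10, chromosome 15 from 101996698 to 102004482, minus strand) stood at 177 and 191 CPM in NTC-Veh and at 211 and 170 CPM in sgBap1-Veh. With CCl4 it stood at 795, 855 and 912 CPM in NTC and at 972, 929 and 932 CPM in sgBap1. The vehicle livers of the 2 genotypes overlapped, whereas the lowest sgBap1-CCl4 liver lay just above the highest NTC-CCl4 liver. Krt18 (ENSMUSG00000023043.7, chromosome 15 from 102028180 to 102032027, plus strand) stood at 160 and 164 CPM in NTC-Veh and at 169 and 136 CPM in sgBap1-Veh. With CCl4 it stood at 728, 693 and 774 CPM in NTC and at 795, 711 and 826 CPM in sgBap1, and here the genotypes overlapped under both treatments.

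The increase with CCl4 was nearly the same for both keratins. On the log2 scale Krt8 was higher by 2.21 (SE 0.14) in NTC and by 2.31 (SE 0.14) in sgBap1, and Krt18 by 2.17 (SE 0.14) and 2.35 (SE 0.14). As a ratio of mean CPM, Krt8 was 4.64-fold and 4.97-fold higher, and Krt18 4.51-fold and 5.09-fold higher. CCl4 changed a large share of the transcriptome, with 53.9% of tested genes past the threshold in NTC and 57% in sgBap1, and the 3 tested genes chosen here were higher in every CCl4 liver than in every vehicle liver in both genotypes, as were 36.7% of all tested genes in NTC and 37.3% in sgBap1. Many genes moved further than the 2 keratins, since Krt8 ranked 1197 and Krt18 1244 of 17015 by fitted increase in NTC. The keratins were far more abundant than Sprr1a, with Krt8 at rank 870 and Krt18 at rank 984 by mean CPM in NTC-Veh and at ranks 97 and 111 in NTC-CCl4. TMM, the scaling used here, corrects for differences in RNA composition, and with scaling by library size alone all 4 increases were higher, at 2.65 to 2.82, where the median of all tested genes also shifted, by 0.50 in NTC and 0.52 in sgBap1.

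Neither keratin differed between genotypes beyond the error of the fit. With CCl4, Krt8 was higher in sgBap1 by 0.15 on the log2 scale (SE 0.11, 95% interval -0.10 to 0.39, adjusted p = 0.590) and Krt18 by 0.09 (SE 0.11, -0.16 to 0.33, adjusted p = 0.774). With vehicle, the log2 differences were 0.05 for Krt8 (SE 0.14, -0.25 to 0.35, adjusted p = 0.943) and -0.09 for Krt18 (SE 0.14, -0.39 to 0.22, adjusted p = 0.876). The interaction, which asks whether CCl4 raised a gene more in one genotype, was 0.10 for Krt8 (SE 0.18, -0.29 to 0.49, adjusted p = 0.902) and 0.17 for Krt18 (SE 0.18, -0.22 to 0.57, adjusted p = 0.810). These intervals leave room for genotype differences of up to 1.31-fold for Krt8 and 1.26-fold for Krt18 with CCl4. For the interaction edgeR called 0 of the 17015 genes (0%), with 1764 at an unadjusted p under 0.05, and DESeq2's Wald test called 420, of which none was one of the genes chosen here.

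**Figure D2:**
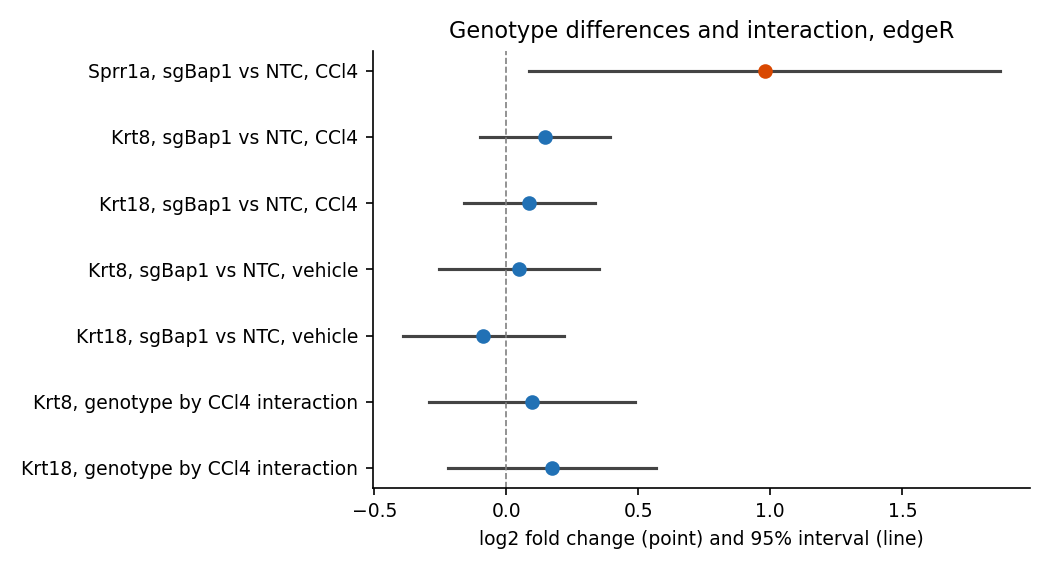
Log2 fold change (points) and 95% interval (lines) from edgeR for the genotype comparisons and the interaction, with no difference marked by the dashed line. Sprr1a with CCl4 lies at 0.98 with an interval of 0.09 to 1.87, and every interval of Krt8 and Krt18 includes 0.

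The balance between the 2 filament partners stayed within a narrow range. The ratio of Krt8 to Krt18 CPM lay between 1.09 and 1.31 in all 10 livers, with a mean of 1.19 ± 0.07 (SD), and per kb of exon it was 0.875 ± 0.051. By group the ratio was 1.13 ± 0.042 in NTC-Veh, 1.25 ± 0.00064 in sgBap1-Veh, 1.17 ± 0.070 in NTC-CCl4 and 1.22 ± 0.089 in sgBap1-CCl4. On the log2 scale sgBap1 exceeded NTC by 0.14 with vehicle (exact two-sided permutation p = 0.333, the smallest that 2 against 2 livers allow) and by 0.06 with CCl4 (exact two-sided permutation p = 0.5, where 3 against 3 livers cannot go below 0.1). Krt8 shares 29.7% of its 50-base stretches with the pseudogene Krt8-ps and the overlapping model Gm36026, so a part of its reads could be split between them, and Krt8-ps was assigned 0.944% to 1.29% as many counts as Krt8. Krt18 shares 0.72%.

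Krt8 and Krt18 lie side by side on chromosome 15, head to head, with 23698 bases between their starts, although Krt18 is a type I keratin and the cluster of that type lies on chromosome 11. Of the 27 keratin genes on chromosome 15, 16 had 0 counts in all 10 livers and 4 had at most 3 counts in any liver. The 7 above that were Krt8, Krt18, Krt4, Krt5, Krt7, Krt79 and Krt80. Together Krt8 and Krt18 made up 98.1% to 99.5% of all keratin CPM in every liver, and all other keratins summed to at most 14.0 CPM.

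Krt20, a type I keratin of gut and urothelial lining cells (ENSMUSG00000035775.2, chromosome 11 from 99428403 to 99438150), remained at the edge of detection. It had 0 counts in the 4 vehicle livers, 5, 6 and 4 counts in NTC-CCl4 and 2, 11 and 0 counts in sgBap1-CCl4. All 3 NTC-CCl4 livers were thus just above the floor, as was 1 of the 3 sgBap1-CCl4 livers, the one with fat cell genes. These counts correspond to at most 0.188 CPM, and the gene was not tested in any comparison. Of 10 other genes that mark these lining cells, 5 were tested. In NTC 1 was called higher and 2 lower, beside 27.4% and 26.6% of all tested genes. Cdh17 rose from 0.027 CPM in NTC-Veh to 2.39 CPM in NTC-CCl4, Lgals4 fell by 1.66 and Fabp2 fell by 0.75 on the log2 scale. Vil1 and Muc2 were not called. Cdh17 had at most 4 counts in any vehicle liver and could pass the filter only through CCl4 livers. The call of Fabp2 was lost without either NTC-Veh liver and with scaling by library size alone.

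Within the CCl4 livers no pair of Sprr1a, Krt8 and Krt18 had a correlation that passed after adjustment. The Pearson correlation of log2 CPM over these 6 livers, 3 of each genotype, was 0.82 between Sprr1a and Krt8 (exact permutation p = 0.0472, adjusted over the 3 pairs 0.142, Spearman's rho 0.77, exact permutation p = 0.103, adjusted 0.263). Leaving out the 2 livers farthest from the median of Sprr1a it was 0.64. Between Sprr1a and Krt18 it was 0.11 (exact permutation p = 0.835, adjusted 0.835, rho 0.09, exact permutation p = 0.919, adjusted 0.919) and -0.08 without the 2 farthest livers. Between Krt8 and Krt18 it was 0.58 (exact permutation p = 0.240, adjusted 0.360, rho 0.66, exact permutation p = 0.175, adjusted 0.263) and 0.26 without the 2 farthest. The 3 sgBap1-CCl4 livers were the higher ones for both Sprr1a and Krt8, and 3 livers of a genotype are too few to test the relation within one. Per kb of exon, Sprr1a reached 4.56% to 12.1% of the level of Krt8 in the NTC livers given CCl4 and 11.7% to 17.2% in those of sgBap1.

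**Figure D3:**
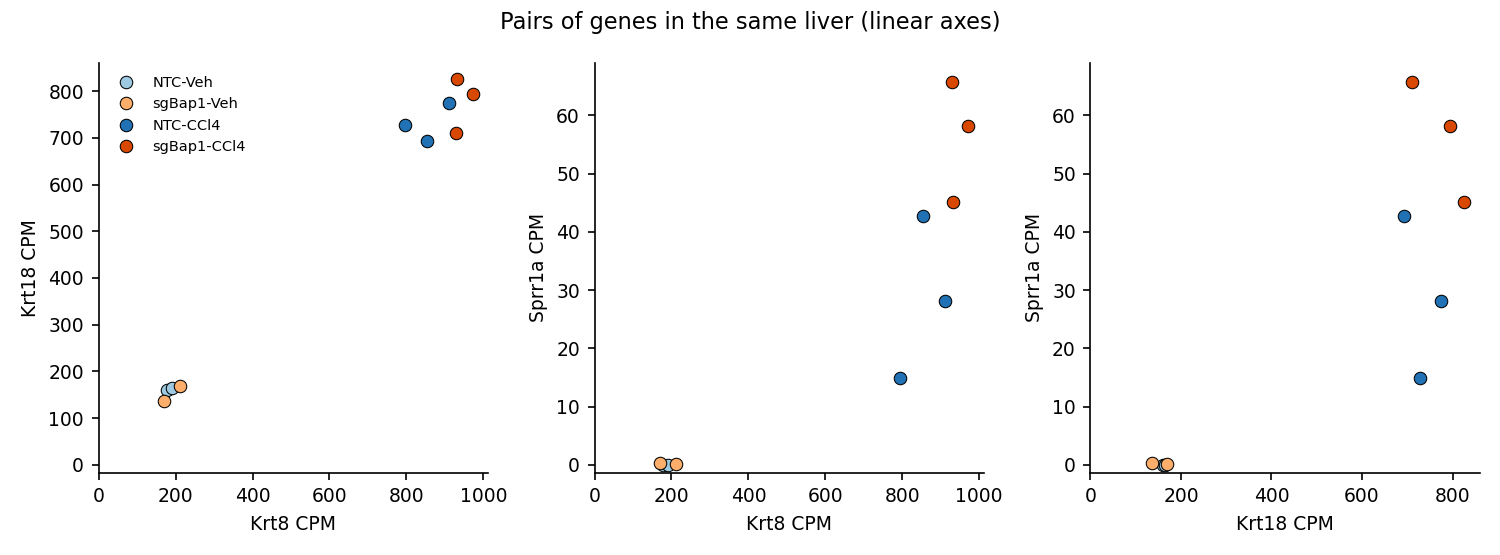
CPM of each pair of Krt8, Krt18 and Sprr1a in the same liver (linear axes, 1 point per liver, coloured by group). Vehicle and CCl4 livers form 2 separate clusters in each panel, and within the CCl4 cluster the sgBap1 livers lie highest for Sprr1a.

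The other 51 keratins gave few calls. Of these, 33 had 0 counts in all livers and 8 could be tested. With CCl4 in NTC 2 of the 8 rose, Krt80 and Krt5, beside 27.4% of all tested genes called higher, and in sgBap1 Krt80 rose and Krt23 fell, beside 29% called higher and 28% lower. The median log2 fold change of the 8 was 0.78 in NTC and 1.13 in sgBap1, against 0.03 and 0.04 over all tested genes. Among the 8, Krt5, Krt14 and Krt79 had at most 5 counts in any vehicle liver and could pass the filter only through CCl4 livers. The count and the medians therefore partly follow from the filter. Krt80, a type II keratin of differentiating epithelia, stood at 0.354 and 0.249 CPM in NTC-Veh and at 3.09, 3.96 and 4.01 CPM in NTC-CCl4 (log2 fold change 3.60, SE 0.27, adjusted p = 3.90e-06). It reached nearly the same level in sgBap1-CCl4, at 3.49 to 3.61 CPM.

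Krt5, the basal keratin of squamous epithelia, was called on few reads. It had 0 counts in both NTC-Veh livers and 2, 31 and 6 counts in NTC-CCl4, and without either NTC-Veh liver it was no longer called. In NTC 1 keratin in place of 2 was called without replicate 1 of NTC-Veh, replicate 2 of NTC-CCl4 or replicate 2 of sgBap1-CCl4. The bile duct keratins Krt7 (adjusted p = 0.374) and Krt19 (adjusted p = 0.695) were not called in NTC, with means of 1.61 ± 0.81 and 1.87 ± 0.95 CPM (n = 3) in NTC-CCl4. Krt23 fell by 2.22 on the log2 scale in sgBap1 (SE 0.40, adjusted p = 0.000858), from 1.53 ± 0.73 to 0.337 ± 0.056 CPM, and in NTC it stood at 1.03 and 0.575 CPM (adjusted p = 0.113). None of the 8 passed the threshold between genotypes.

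Sprr1a was the main Sprr gene of the injured livers. In NTC-CCl4 livers it held 64.6% to 92.8% of all Sprr CPM, and in those of sgBap1-CCl4 92.6% to 92.8%. Of the 15 Sprr genes on chromosome 3, 9 had 0 counts throughout. Besides Sprr1a, those with more than 3 counts in a liver were Sprr1b, with at most 22 counts, and Sprr2a1, Sprr2a2, Sprr2a3 and Sprr2b. The 3 Sprr2a genes can hardly be told apart by short reads and were summed. Their sum was 0.0817 and 0.0554 CPM in NTC-Veh, 6.79, 2.93 and 6.50 CPM in NTC-CCl4, 0.565 and 0 CPM in sgBap1-Veh, and 4.19, 4.47 and 3.12 CPM in sgBap1-CCl4. The liver with the most Sprr2a in NTC-CCl4, replicate 1, was the one with the least Sprr1a.

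Of 53 genes of the cornified envelope and its gene cluster other than Sprr1a, 35 had 0 counts in all livers and 9 were tested. In NTC 5 of the 9 rose and none fell, namely Sprr2a1, Sprr2a2, Sprr2a3, Sprr2b and Tgm1, beside 27.4% of all tested genes called higher, and the median log2 fold change of the 9 was 4.12, against 0.03 over all tested genes. In sgBap1 6 rose, Sprr2a1, Sprr2a2, Sprr2b, Tgm1, Crct1 and Lor, beside 29% of all tested genes, with a median of 2.74 against 0.04. Of the 9, 4 had at most 3 counts summed over NTC-Veh, namely Sprr2a1, Sprr2a3, Sprr2b and Crct1. They could pass the filter only through their CCl4 livers. The same holds for Sprr2a2, with 3 and 2 counts in NTC-Veh and 19.9 and 0 in sgBap1-Veh. The numbers called and the medians of this list therefore partly follow from the filter. Tgm1, the transglutaminase that builds the envelope in skin, rose from 33.2 ± 2.4 to 56.8 ± 10.9 CPM in NTC (log2 fold change 0.77, SE 0.20, adjusted p = 0.00819). Lor, which encodes loricrin, the main envelope protein, stood at 0.647, 0.873 and 0.659 CPM in sgBap1-CCl4 and at 0.156 to 0.256 CPM in NTC-CCl4 (adjusted p = 0.054 between them). The calls of the 3 Sprr2a genes rest on shared reads and cannot be counted as independent, and Sprr2a3 was lost in 6 of the 10 fits without a liver. In NTC 3 genes were called without replicate 2 of NTC-Veh, when Tgm1 was lost (adjusted p = 0.0687), or without replicate 1 or 3 of NTC-CCl4, and in sgBap1 3 without replicate 2 of sgBap1-Veh.

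Genes that anchor or link filaments moved in both directions. Of 18 tested genes of desmosomes and filament linkers, 9 rose and 2 fell in NTC and 10 rose and 2 fell in sgBap1, with medians of 0.41 and 0.55. The shares called, 61.1% and 66.7%, lie near those of all tested genes, 53.9% and 57%. The members that rose furthest were not desmosomal but other intermediate filament proteins, Nes (nestin, from 2.98 to 23.6 CPM in NTC), Vim (vimentin, from 21.6 to 163 CPM) and Des (desmin, log2 fold change 1.75), which are known from mesenchymal and stellate cells. Plakophilin Pkp1 rose by 1.31 (SE 0.40, adjusted p = 0.0183) and envoplakin Evpl by 0.96 (SE 0.31, adjusted p = 0.0221), and both calls were lost without replicate 1 of NTC-Veh and without replicate 2 of NTC-CCl4, that of Pkp1 also without replicate 2 of NTC-Veh. The number called in NTC dropped to 6 without replicate 2 of NTC-Veh or of NTC-CCl4 and to 7 without replicate 3 of NTC-CCl4. In sgBap1 12 were called with all livers, but only 7 to 10 in the 10 fits without a liver, with 7 without replicate 2 of sgBap1-Veh.

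Partners of keratins in inclusions moved likewise in both directions. Of 14 tested, 5 rose and 3 fell in NTC and 6 rose and 3 fell in sgBap1, with medians of 0.25 and 0.35. The shares called were 57.1% and 64.3%, again near the 53.9% and 57% of all tested genes. Tgm2, the tissue transglutaminase that crosslinks keratin in inclusions, rose from 150 ± 9.2 to 594 ± 60 CPM in NTC (log2 fold change 1.98, SE 0.13, adjusted p = 2.41e-06). The small heat shock proteins Hspb1 (1.54, SE 0.48, adjusted p = 0.0262) and Cryab (0.89, SE 0.23, adjusted p = 0.00791) and the 14-3-3 protein Ywhaz (0.69, SE 0.09, adjusted p = 9.77e-05) also rose, whereas the autophagy receptor Nbr1 fell by 0.62 (adjusted p = 0.000277). Hspb8, a more abundant small heat shock protein, went down from 184 to 128 CPM in NTC (log2 fold change -0.53, SE 0.14, adjusted p = 0.00801). In sgBap1 its log2 fold change was -0.54 (adjusted p = 0.00677). Hspb1 was no longer called without either NTC-Veh liver or replicate 2 of NTC-CCl4 (adjusted p up to 0.116), nor Cryab without replicate 1 of NTC-Veh (0.0509), without which 5 partners in all were called. Nbr1 was no longer called with scaling by library size alone (adjusted p = 0.172). Bag3, a cochaperone of the small heat shock proteins, was called between genotypes with vehicle, at 52.0 and 41.7 CPM in sgBap1 against 27.2 and 26.7 CPM in NTC (log2 fold change 0.80, SE 0.12, adjusted p = 0.0347). It was lost in 3 of the 8 alternatives and in 6 of the 10 fits without a liver, among them those without either NTC-Veh liver (adjusted p up to 0.171).

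The genes known to act on Sprr or simple keratin promoters rose in most cases. Of 18 transcription factors and cytokine receptors tested, 15 rose in NTC and 16 in sgBap1 and none fell, beside 27.4% and 29% of all tested genes called higher, and the medians were 1.70 and 1.91 against 0.03 and 0.04. Fosl1, an AP-1 protein, followed the course of Sprr1a, with 2 and 0 counts in NTC-Veh, 0 in both sgBap1-Veh livers, 2.79, 7.98 and 6.71 CPM in NTC-CCl4 and 12.6, 13.0 and 8.03 CPM in sgBap1-CCl4. Atf3, a stress factor of the same class, rose from 1.57 ± 0.019 to 38.7 ± 6.5 CPM in NTC (log2 fold change 4.62, SE 0.38, adjusted p = 1.63e-05). Fosb (4.15), Fos (3.35), the epithelial factor Elf3 (2.85) and Klf6 (2.21) rose as well. Fosl1 had at most 2 counts in any vehicle liver and Fosb at most 13, so both could pass the filter only through CCl4 livers. For these genes the calls and their part in the medians partly follow from the filter. Klf6, which is known to be induced in injured liver, was the only gene of the list called between genotypes with CCl4, at 108, 95.6 and 78.5 CPM in sgBap1 against 43.9, 50.1 and 60.4 CPM in NTC (log2 fold change 0.87, SE 0.15, adjusted p = 0.0493). That call was lost in 5 of the 8 alternatives and in 9 of the 10 fits without a liver (adjusted p up to 0.217).

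**Figure D4:**
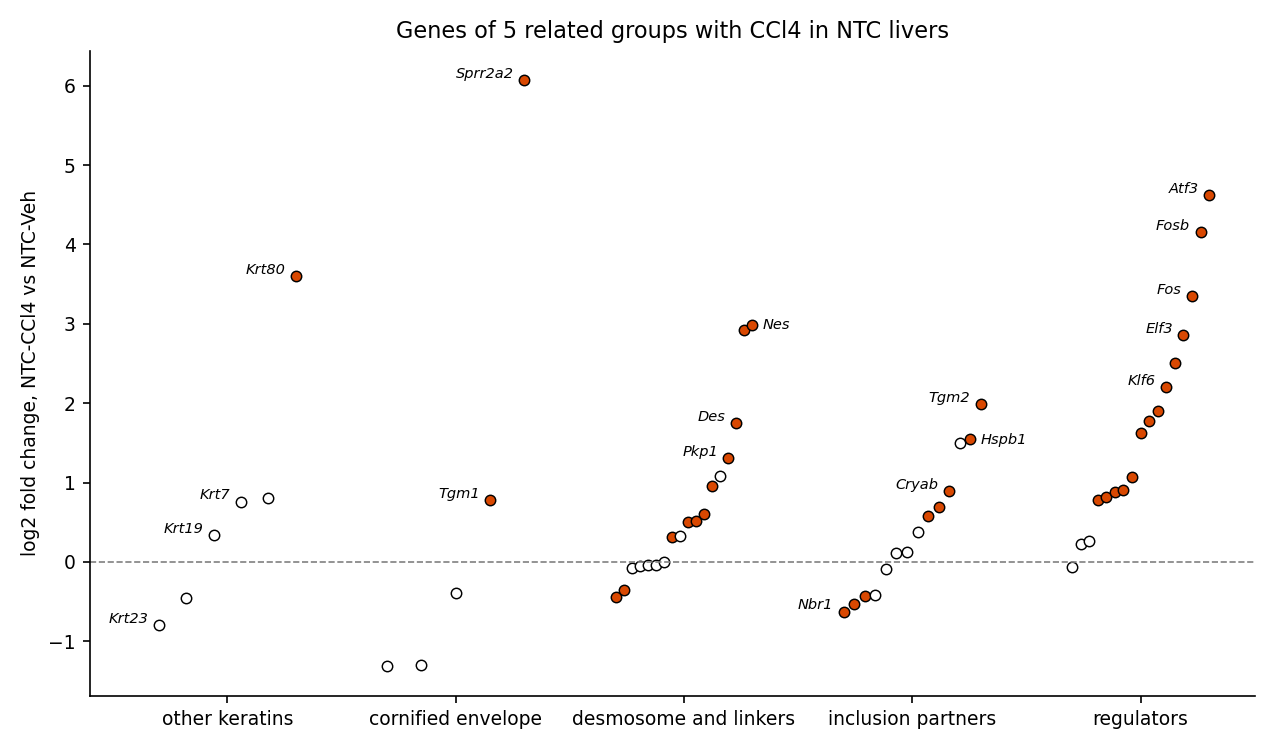
Log2 fold change between NTC-CCl4 and NTC-Veh for the tested genes of the 5 lists (1 point per gene, filled where called by edgeR at an adjusted p under 0.05, some named). Genes with at most 3 counts summed over NTC-Veh are left out, among them Krt5, Sprr2a1 and Fosl1, and the regulators are filled in nearly all cases. Sprr2a2 and Fosb are shown, although they could pass the filter only through CCl4 livers.

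Sprr1a is named as a squamous gene, and the markers of squamous cells were low in all groups. The 10 squamous markers, which include Trp63, Krt5, Krt14 and Dsg3, summed to 1.44 to 1.66 CPM in NTC-Veh and 1.35 to 1.95 CPM in NTC-CCl4. In the sgBap1 livers they summed to 1.56 to 1.76 CPM with vehicle and 1.53 to 1.92 CPM with CCl4. Krt10, a keratin of the upper epidermis, made up 88.3% to 98.1% of that sum in the vehicle livers and 50% to 81.1% in the CCl4 livers, at 0.885 to 1.65 CPM. The sum of the other 9, set apart after the values were seen, was higher in each CCl4 liver than in each vehicle liver, at 0.298 to 0.977 CPM against 0.0272 to 0.194 CPM. Trp63, the master factor of squamous cells, had 0 counts in 7 of the 10 livers and 6 counts in the liver with fat cell genes. Mesothelial markers summed to between 1.82 and 26.6 CPM and overlapped among all groups.

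The summed markers of bile duct cells were higher with CCl4, mainly through Spp1. The 9 markers summed to 57.0 to 69.2 CPM in the vehicle livers, 209 to 267 CPM in NTC-CCl4 and 287 to 381 CPM in sgBap1-CCl4, and none was at 0 in all livers of a group. Spp1 alone stood at 37.1 to 43.6 CPM in the vehicle livers, 180 to 234 CPM in NTC-CCl4 and 260 to 352 CPM in sgBap1-CCl4. In NTC 3 of the 9 were called higher (33.3%), beside 27.4% of all tested genes. They were Spp1 (log2 fold change 2.27, adjusted p = 4.71e-06), Sox9 (2.20, adjusted p = 3.89e-06) and Muc1 (1.34, adjusted p = 0.00145). The duct keratins did not pass, and the NTC-Veh livers were far apart for Krt7 (0.436 and 1.44 CPM) and Krt19 (0.517 and 2.38 CPM). Krt19 was also one of the mesothelial markers. Epcam stood at 1.62 CPM in NTC-Veh and 1.25 CPM in NTC-CCl4. Hepatocyte markers summed to between 124829 and 173419 CPM with vehicle and between 76338 and 97853 CPM with CCl4. The part of changed cell composition in the keratin levels was not tested.

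**Figure D5:**
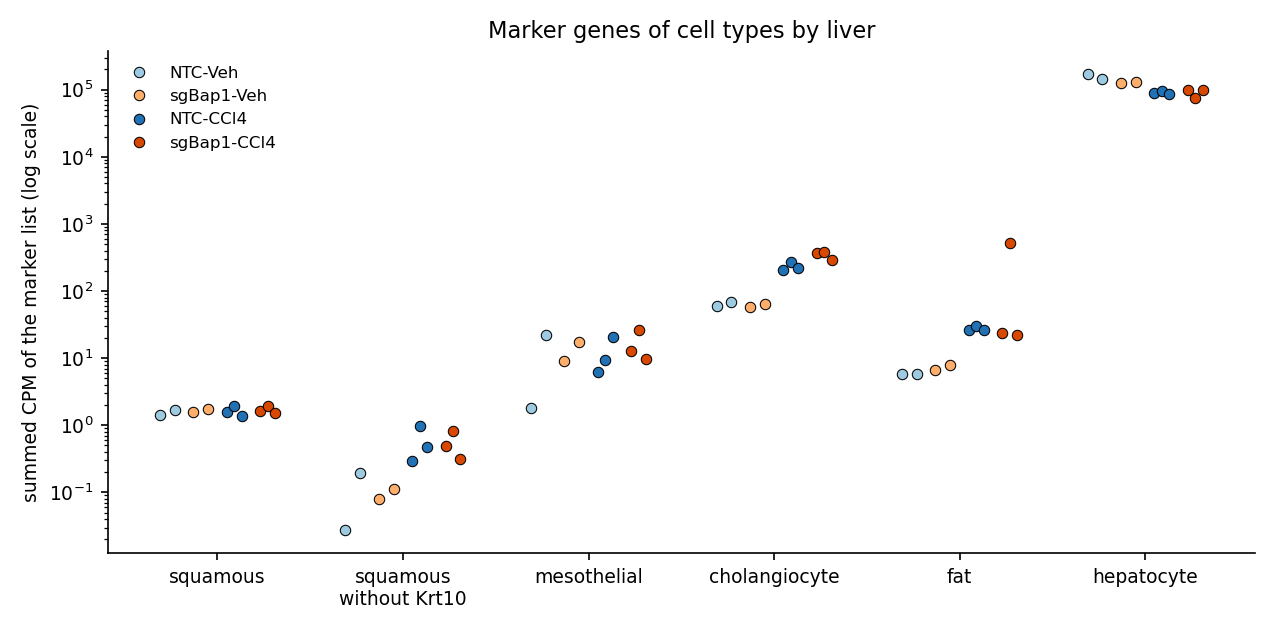
Summed CPM of 5 marker lists, the squamous one also without Krt10, in each liver (log axis, 1 point per liver, coloured by group). The squamous list lies between 1.35 and 1.95 CPM in every liver, and without Krt10 it is higher in all CCl4 livers but under 1 CPM. The bile duct list is higher in all CCl4 livers, mainly through Spp1, and 1 sgBap1-CCl4 liver stands apart for fat at 528 CPM.

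Sprr1a, Krt8 and Krt18 were each compared with the 12025 other tested genes that averaged 100 counts or more. Those most like Sprr1a over the 10 livers by Pearson correlation of log2 CPM were Pdlim7 (0.997), Atf3, Uap1l1, Slc16a3 and Dusp10. These values rest mainly on the gap between vehicle and CCl4 livers, and within the 6 CCl4 livers they were 0.88, 0.87, 0.95, 0.94 and 0.82. For Krt8 the most alike were Clec4d, Krt18, Rhoc, Tes and Tdg, and for Krt18 they were Krt8, Rhoc, Ccdc71l, Cdt1 and Tnfrsf12a. Within the CCl4 livers the correlation with Krt8 was 0.90 for Clec4d, 0.91 for Tes and 0.28 for Tdg. Each is given as a description of these 10 livers.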

How the data were processed

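Bulk RNA-seq of 10 mouse livers was analysed. The authors aligned stranded mRNA reads (pairs of 50 bases) to GRCm38 with STAR 2.7.6a and estimated gene counts with Salmon 1.4.0 on GENCODE vM25. The values deposited by the authors are these estimated counts (expected counts) per gene without normalization, and 9.22% of the values were not whole. Counts were rounded and analysed with edgeR 4.0.16 in R 4.3.3. The filter filterByExpr by group kept 17015 genes. After TMM scaling, 1 model of the 4 groups was fitted with glmQLFit (robust), and contrasts were tested two-sided with edgeR's quasi-likelihood test, with Benjamini-Hochberg adjustment over all tested genes at a threshold of 0.05. CPM values are TMM-scaled, and log2 CPM for correlations used a prior count of 2. Exact permutation tests enumerated all regroupings of livers or all pairings of values.

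Gene positions, exon lengths and shared 50-base stretches come from GENCODE vM21 (GRCm38), and promoters from RefSeq (GRCm38.p6), where all 4 genes were matched. The genes, the lists and the tests were chosen with earlier results of these data known. Named list genes are the up to 5 with the largest fold change among those called with CCl4 in NTC with a mean of at least 10 counts, Krt7, Krt19, Krt23, and any called between genotypes. Krt5, Sprr2a1, Sprr2a3, Crct1, Lor, Epcam, Sprr1b, Hspb8, Vil1 and Muc2 were named after their values were seen. The labels give the replicates only as numbered livers, each taken here as a separate mouse. No batch is named, and the spread measures these mice alone. Replicate numbers were not treated as pairs. The deviations of same-numbered livers correlated at -0.149 to 0.102 over 13 pairs. With 2 or 3 livers a group these pairs are not independent, so they cannot tell whether the numbers pair the mice. The interval of the pooled counts and the floors cover counting error only, whereas the intervals from edgeR include the spread between livers. The code was tested on simulated data. Alternatives were DESeq2 size factors, library size alone, no filter, genes averaging 10 counts or more, a replicate block, the edgeR 3 method, DESeq2 1.42.0, only the 2 groups compared, and each liver left out.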

Additional observations from a re-analysis of the deposited data

How the results depend on the processing

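None of the 158 refits of the 9 genotype and interaction tests of Sprr1a, Krt8 and Krt18 passed the threshold (lowest adjusted p 0.0547, for Sprr1a with vehicle by DESeq2's Wald test, on 10 counts). Over the 8 alternatives the log2 difference of Sprr1a between genotypes with CCl4 was 0.98 to 1.09 (adjusted p 0.250 to 0.556), and 0.67 to 1.39 without single livers (adjusted p 0.184 to 0.592). Directions of small differences turned when 1 liver was left out. The Krt8 difference with vehicle was -0.0109 without NTC-Veh replicate 1 and -0.121 without sgBap1-Veh replicate 1 (range -0.12 to 0.20), that of Krt18 was 0.0600 without sgBap1-Veh replicate 2 (-0.26 to 0.06), and the Krt8 interaction was -0.0503 without sgBap1-Veh replicate 2 (-0.05 to 0.27). With library size alone the increases with CCl4 were 2.69 and 2.79 for Krt8 and 2.65 and 2.82 for Krt18 in NTC and sgBap1. Without single livers the Krt8 increase in sgBap1 was 2.16 to 2.48.

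Counts of called genes depended on the setting. Between genotypes with CCl4 (56 genes) they were 94 with no filter, 502 with DESeq2's Wald test, 28 with only the 2 groups and 1 to 71 without single livers. With vehicle (69 genes) they were 32 with library size alone, 562 with DESeq2's Wald test, 27 with only the 2 groups and 0 to 150 without single livers. For the interaction (0 genes) they were 2 with library size alone, 34 with no filter, 420 with DESeq2's Wald test and 0 to 7 without single livers. With the replicate number as a block, which the labels do not name as a pairing, 24 genes were called between genotypes with CCl4 and 1 with vehicle. The block gave Sprr1a a difference of 1.09 with CCl4 (adjusted p = 0.250) and changed no call of Sprr1a, Krt8 or Krt18. The cause of these differences was not tested.

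Of the other keratins in NTC, 1 was called with a mean of at least 10 counts, which leaves out Krt5, and 1 with only the 2 groups. Of the cornified envelope genes in NTC, 3 were called with a mean of at least 10 counts. Without single livers the called genes in NTC were 1 to 3 keratins, 3 to 6 envelope genes, 6 to 11 linkers and 5 to 9 inclusion partners, and in sgBap1 3 to 9 envelope genes and 7 to 10 linkers. Without Krt10, chosen after seeing the data, the median squamous sum was 0.385 CPM higher with CCl4 than with vehicle, against -0.0142 CPM with it. The lower level of Bap1 was no longer called in either genotype comparison with the block or library size alone, nor with CCl4 with only the 2 groups (adjusted p = 0.0766). Without single livers its adjusted p reached 0.120 with vehicle, where leaving out any of the 4 vehicle livers lost the call, and 0.147 with CCl4, where it was lost without either NTC-Veh liver, any NTC-CCl4 liver or replicate 1 of sgBap1-CCl4. With 2 vehicle livers a group, small genotype differences cannot be resolved at this depth.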
